A study of Mus musculus with 5 samples.

Results

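The circadian clock was described in kidneys of mice that had undergone unilateral ischemia-reperfusion injury (UIRI), through 10 genes chosen by their symbols: Clock, Per1, Per2, Per3, Cry1, Cry2, Nr1d1, Nr1d2, Dbp and Tef. They are 10 of the 35478 genes listed, and all 10 were among the 16394 genes expressed highly enough to be tested. RNA was sequenced from 2 Prdm16fl/fl mice, numbered 1 and 3, and from 3 Ksp-Cre/Prdm16fl/fl mice, numbered 1, 2 and 3, with 1 library per mouse. According to the methods the controls were littermates, but which of these mice came from the same litter or operation day is not given in the sources used here, so the p-values measure the spread between these mice alone. Every mouse was a young adult male and carried the floxed Prdm16 allele. The strain field of the labels gives C57BL/6J;129 for all mice, as the methods do, whereas the sample titles name C57BL/6J alone. In both groups the left renal pedicle was closed with a clamp over 35 minutes on a bath of 38.5°C, the right kidney was taken out at 10 days, and the animals were killed at 11 days. The Ksp-Cre/Prdm16fl/fl mice, called knockout mice below, also carried Cre recombinase under the kidney-specific cadherin promoter, which drives deletion in tubular epithelium and not in the other cells of the organ. Neither sham-operated kidneys nor kidneys with Ksp-Cre alone were analysed here, so an effect of Cre itself cannot be told apart from that of the deletion, and the response to injury was not measured. The time of day at which the kidneys were taken is not given in the sources used here, so collection time and genotype cannot be told apart for any gene with a daily rhythm.

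Libraries held 15215871 and 14939040 counted reads in the Prdm16fl/fl mice 1 and 3, and 16425161, 16111708 and 15470435 in knockout mice 1, 2 and 3. Levels are given as CPM, the count relative to 1000000 TMM-scaled counts of the library, when mice were compared. TPM, used mainly when genes were compared, divides by the length of the merged exons of a gene and is not TMM-scaled. That length is the same in every mouse, so for a given gene CPM and TPM differ between mice through the scaling. Knockout mouse 3 stood apart. Its log2 CPM correlated across genes with those of knockout mice 1 and 2 at 0.957 and 0.960, whereas knockout mice 1 and 2 correlated with each other at 0.991 and the Prdm16fl/fl mice at 0.989. The first principal component (56.4% of variance) put this mouse at 72.2, far from all others. Knockout mice 1 and 2 lay at -2.04 and -1.92, and the Prdm16fl/fl mice at -32.0 and -36.2. Results on the clock genes that rest on knockout mouse 3 are therefore also given without it. Prdm16 itself had 25.3 and 20.0 CPM in the Prdm16fl/fl mice and 17.1, 17.0 and 17.99 CPM in knockout mice, a log2 fold change of -0.38 ± 0.15 (SE; edgeR adjusted p = 0.259). The count covers the whole gene in all cells of the kidney, so it checks the genotype only in part.

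The clock is a feedback loop of transcription that runs once a day in nearly every cell. A dimer of CLOCK, or its relative NPAS2, with BMAL1 (gene Arntl) binds E-boxes and switches on Per and Cry genes, whose proteins return to the nucleus and repress the dimer, and the same E-boxes drive Nr1d1, Nr1d2, Dbp, Tef, Hlf and Ciart. REV-ERBα and REV-ERBβ (Nr1d1, Nr1d2) and the ROR receptors compete on ROR elements in Arntl, Npas2, Clock and Nfil3, while the activators DBP, TEF and HLF and the repressor NFIL3 compete on D-boxes. Arntl and its companions thus peak when Dbp and Per genes are near their trough, and in kidney the loop sets daily rhythms of sodium transport, filtration and drug handling.

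In the injured knockout kidneys the output factors Tef and Dbp and the repressor Per2 were at between 0.550 and 0.618 of their level in injured Prdm16fl/fl kidneys, whereas Clock, Cry1 and Nr1d2 lay close to it. By edgeR's quasi-likelihood test with Benjamini-Hochberg adjustment over all genes tested, 0 of the 10 genes were called at an adjusted p under 0.05 together with a 2-fold difference (a log2 fold change of 1 or more in size), against 0.708% of all genes. DESeq2 and limma also called 0, against 3.15% and 0.412% of all genes by the same rule (for DESeq2 of those with an adjusted p), as did every other setting tried with that fold limit. At an adjusted p under 0.05 alone, Tef passed (1 of 10, against 0.976% of all genes by that rule and 0.872% in the direction of Tef, lower in the knockout), and 3 of 10 had an unadjusted p under 0.05, against 18.8% of all genes. In Per2, Per3, Dbp and Tef all 3 knockout libraries lay below both Prdm16fl/fl libraries, and in the other 6 genes the groups overlapped. Across all genes 41.6% did not overlap, 21.3% with the knockout lower, so the count of 4 of 10 has to be read against that share. Without knockout mouse 3 the separated genes became 7 of 10, all lower, through Per1, Cry2 and Nr1d1, beside 63.3% of all genes, 30.7% with the knockout lower. In that fit 4 of 10, Per1, Per2, Dbp and Tef, were lower at an adjusted p under 0.05, beside 18.9% of all genes by that rule and 11.0% lower, and 0 of 10 were called, beside 4.53% of all genes. The kidneys are bulk tissue, in which fewer cells of a type and less RNA per cell cannot be told apart.

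**Figure D1:**
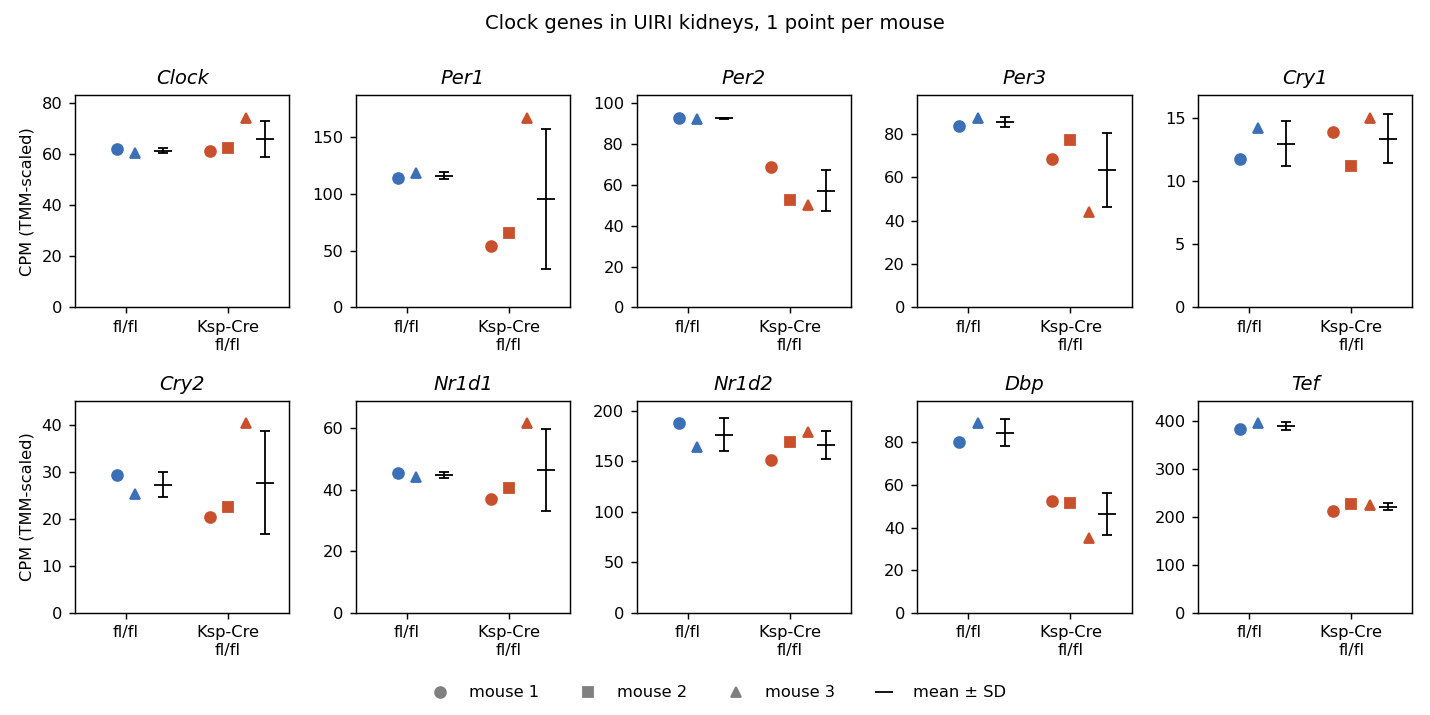
TMM-scaled CPM of the 10 clock genes in each mouse, with Prdm16fl/fl mice in blue, Ksp-Cre/Prdm16fl/fl mice in orange, the symbol giving the mouse number, and the bar giving mean ± SD of the group (n = 2 and n = 3). Tef, Dbp, Per2 and Per3 lie lower in all 3 knockout mice, whereas in Per1, Cry2 and Nr1d1 knockout mice 1 and 2 lie lowest and knockout mouse 3 highest.

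Of the activators, Clock encodes the DNA-binding partner of BMAL1 and lies at chr5:76357715-76452675 on the minus strand in the coordinates of the files, whose mouse genome build is not given in the sources used here. It had 61.8 and 60.5 CPM in the Prdm16fl/fl mice and 61.2, 62.4 and 74.0 CPM in knockout mice. The groups overlapped, with knockout mouse 3 alone above the rest, and the log2 fold change was 0.11 ± 0.13 (SE; edgeR adjusted p = 0.690), and 0.02 without that mouse (edgeR adjusted p = 0.907). On the TPM scale the groups of Clock did not overlap, with 14.0 and 12.4 TPM against 16.2, 16.5 and 17.4 TPM. On that scale 5 of the 10 clock genes did not overlap, 2 higher and 3 lower, beside 49.9% of all genes. The other activator genes stood higher in each knockout mouse without passing the test over all 5 libraries. Arntl, which encodes BMAL1, had 6.34 and 6.89 CPM in the Prdm16fl/fl mice and 8.80, 8.33 and 20.1 CPM in knockout mice, a log2 fold change of 0.90 ± 0.44 (edgeR adjusted p = 0.328). Npas2, whose protein can take the place of CLOCK, had 2.83 and 3.01 CPM against 6.58, 5.49 and 12.5 CPM, a log2 fold change of 1.48 ± 0.42 (edgeR adjusted p = 0.143). In both genes the highest library was knockout mouse 3, and without it the log2 fold changes were 0.38 (edgeR adjusted p = 0.167) for Arntl and 1.05 (edgeR adjusted p = 0.0162) for Npas2, which was then called, as it was by DESeq2 over all mice (adjusted p = 0.0185). Arntl2, the paralog of Arntl, had 5.26 and 5.53 CPM against 7.49, 9.57 and 9.66 CPM, a log2 fold change of 0.72 ± 0.22 (edgeR adjusted p = 0.162).

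The Period genes, whose proteins carry CRY into the repressing complex, did not move alike. Per2 (chr1:91343699-91387072, minus strand) had 92.6 and 92.2 CPM in the Prdm16fl/fl mice and 68.5, 52.5 and 50.2 CPM in knockout mice. All 3 knockout libraries lay below the Prdm16fl/fl pair, which differed by less than 1 CPM. The log2 fold change was -0.70 ± 0.16, a 1.62-fold lower level (edgeR adjusted p = 0.0986), and it was -0.61 without knockout mouse 3 (edgeR adjusted p = 0.0168). Per3 (chr4:151081475-151129167, minus strand) had 83.9 and 87.4 CPM against 68.7, 77.4 and 44.2 CPM. It was lowest in knockout mouse 3, with a log2 fold change of -0.43 ± 0.23 (edgeR adjusted p = 0.378), and of -0.23 without that mouse (edgeR adjusted p = 0.148). On the TPM scale the groups of Per3 overlapped, with 21.0 and 19.9 TPM against 20.1, 22.6 and 11.5 TPM.

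Per1 (chr11:68985934-69000791, plus strand), the Period gene that is also induced directly by hormones and cyclic AMP, had 114 and 118 CPM in the Prdm16fl/fl mice and 54.6, 66.0 and 167 CPM in knockout mice. Knockout mice 1 and 2 were the lowest of the 5 libraries and knockout mouse 3 the highest. The log2 fold change over all mice was -0.28 ± 0.47 (edgeR adjusted p = 0.788), and without knockout mouse 3 it was -0.94 ± 0.11 (edgeR adjusted p = 0.00149). The ratio of Per1 to Per3, both in TPM, showed the same split within the genotype. It was 1.45 in each Prdm16fl/fl mouse, 0.849 and 0.911 in knockout mice 1 and 2, and 4.03 in knockout mouse 3.

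The Cryptochromes, the main repressors of the CLOCK and BMAL1 dimer, had log2 fold changes near 0 over all mice. Cry1 (chr10:84967564-85020918, minus strand) had 11.7 and 14.2 CPM in the Prdm16fl/fl mice and 13.9, 11.2 and 14.99 CPM in knockout mice. The groups overlapped fully, with a log2 fold change of 0.04 ± 0.20 (edgeR adjusted p = 0.927), and of -0.04 without knockout mouse 3 (edgeR adjusted p = 0.887). In TPM the groups of Cry1 did not overlap, like those of 49.9% of all genes on that scale, with 6.77 and 7.44 TPM against 9.34, 7.56 and 9.01 TPM. Cry2 (chr2:92233991-92264426, minus strand) had 29.2 and 25.3 CPM against 20.3, 22.4 and 40.3 CPM, so that it shared the order of Per1, lowest in knockout mice 1 and 2 and highest in knockout mouse 3. Its log2 fold change was 0.02 ± 0.31 (edgeR adjusted p = 0.980) and changed sign, to -0.35 (edgeR adjusted p = 0.0903), without that mouse.

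Among further repressors, Ciart (chr3:95785812-95789775, minus strand), which encodes a repressor that binds BMAL1, fell. It had 19.1 and 23.1 CPM in the Prdm16fl/fl mice and 3.69, 5.43 and 4.86 CPM in knockout mice. The groups were far apart, the 3 knockout mice lay close together, and the log2 fold change was -2.18 ± 0.22, a 4.52-fold lower level (edgeR adjusted p = 0.0337). Ciart was the 1 gene called among the 10 other clock factors, with 0.628% of all genes called lower. At an unadjusted p under 0.05 there were 7 of 10, beside 18.8% of all genes. Of these factors, 6 were higher and 3 lower in all knockout libraries, beside 20.3% and 21.3% of all genes, and only Rora overlapped. Ciart no longer passed when 1 of the mice other than knockout mouse 3 was left out (edgeR adjusted p from 0.105 to 0.496), but passed without knockout mouse 3 at a log2 fold change of -2.21 (edgeR adjusted p = 0.000598). Bhlhe40 (DEC1), an E-box repressor that also responds to hypoxia and cytokines, had 170 and 157 CPM against 241, 301 and 242 CPM, a log2 fold change of 0.68 ± 0.15 (edgeR adjusted p = 0.0962). Without knockout mouse 3 Bhlhe40 was at 0.73 (edgeR adjusted p = 0.00616), and DESeq2 over all mice gave an adjusted p of 0.00516. It did not pass without knockout mouse 1 or 2 (edgeR adjusted p = 0.183 and 0.240). With the mouse number as a block it did not pass either (edgeR adjusted p = 0.323). Without Prdm16fl/fl mouse 1 or 3, which leaves that group unreplicated, the log2 fold change of Bhlhe40 was 0.74 and 0.62. Its paralog Bhlhe41 (DEC2) had 9.17 and 8.11 CPM against 12.1, 10.8 and 13.6 CPM, a log2 fold change of 0.49 ± 0.19 (edgeR adjusted p = 0.245). These repressors, all known E-box targets, therefore stood on opposite sides of the Prdm16fl/fl level, Ciart below it and the DEC genes above it.

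In the second loop, Nr1d1 (chr11:98658758-98666233, minus strand), which encodes REV-ERBα, had 45.4 and 44.1 CPM in the Prdm16fl/fl mice and 37.0, 40.5 and 61.6 CPM in knockout mice. It followed the order of Per1 and Cry2, with knockout mouse 3 on top, and its log2 fold change of 0.05 ± 0.23 (edgeR adjusted p = 0.926) became -0.21 (edgeR adjusted p = 0.195) without that mouse. Nr1d2 (chr14:4230549-4265640, plus strand), which encodes REV-ERBβ, had 188 and 165 CPM against 152, 170 and 179 CPM. Its groups overlapped, and the log2 fold change of -0.08 ± 0.13 (edgeR adjusted p = 0.781) changed sign when counts were scaled by library size alone and was -0.13 without knockout mouse 3 (edgeR adjusted p = 0.441). Of the opposing ROR receptors, Rora had 59.6 and 69.2 CPM against 56.6, 73.8 and 124 CPM, a log2 fold change of 0.39 ± 0.33 (edgeR adjusted p = 0.553), which was 0.02 without knockout mouse 3 (edgeR adjusted p = 0.929). Rorb had few reads, with 13 and 11 counts against 8, 8 and 1 counts.

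The PAR bZIP factors were lower in every knockout mouse than in either Prdm16fl/fl mouse. Tef (chr15:81686874-81711064, plus strand) had 384 and 395 CPM in the Prdm16fl/fl mice and 212, 226 and 225 CPM in knockout mice. The spread within each group was small beside the distance between them, 389 ± 7.91 CPM (SD, n = 2) against 221 ± 7.75 CPM (SD, n = 3). The log2 fold change was -0.82 ± 0.12, a 1.76-fold lower level (edgeR adjusted p = 0.0457), and was -0.83 without knockout mouse 3 (edgeR adjusted p = 0.00171). Tef did not pass with library size scaling (edgeR adjusted p = 0.0714), with limma on FPKM (adjusted p = 0.0616) or when 1 mouse other than knockout mouse 3 was left out (edgeR adjusted p from 0.151 to 0.521). Dbp (chr7:45354518-45359627, plus strand) had 80.0 and 89.0 CPM against 52.5, 51.6 and 35.1 CPM, so that all 3 knockout mice were lower and knockout mouse 3 was lowest. Its log2 fold change was -0.86 ± 0.19, a 1.82-fold lower level (edgeR adjusted p = 0.0944), and was -0.69 without that mouse (edgeR adjusted p = 0.00289). Hlf, the third activator of this family, had 123 and 133 CPM against 61.9, 61.3 and 38.2 CPM, a log2 fold change of -1.25 ± 0.22 (edgeR adjusted p = 0.0598), and was called without knockout mouse 3 (-1.05, edgeR adjusted p = 0.000612) and by DESeq2 over all mice (adjusted p = 0.000126).

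Nfil3, the repressor that shares D-boxes with these activators, stood on the other side. It had 7.89 and 8.97 CPM in the Prdm16fl/fl mice and 12.5, 12.4 and 29.6 CPM in knockout mice, a log2 fold change of 1.11 ± 0.44 (edgeR adjusted p = 0.253). Without knockout mouse 3 the log2 fold change was 0.57 (edgeR adjusted p = 0.0370). Summed over Dbp, Tef and Hlf, the activators had 586 and 617 CPM against 326, 339 and 298 CPM. Their sum divided by the CPM of Nfil3 was 74.3 and 68.7 in the Prdm16fl/fl mice, 26.0 and 27.3 in knockout mice 1 and 2, and 10.1 in knockout mouse 3, so that no knockout mouse reached either Prdm16fl/fl mouse.

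**Figure D2:**
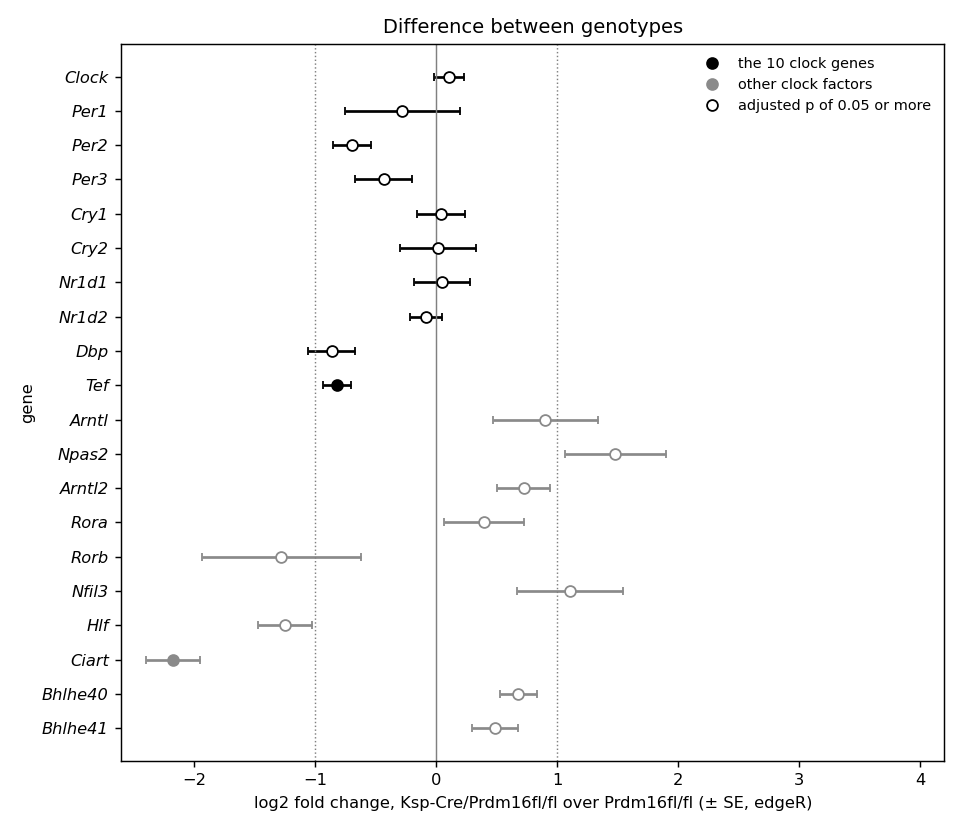
Log2 fold change of Ksp-Cre/Prdm16fl/fl over Prdm16fl/fl UIRI mice for the 10 clock genes (black) and 10 other clock factors (grey), with bars of ± SE from edgeR, filled points at an adjusted p under 0.05 and dotted lines at a log2 fold change of 1 in either direction. Tef and Ciart are the filled points, and Ciart lies beyond the dotted line at -2.18.

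Reads of a few of these genes can be confused with those of neighbours, since the strand setting of the counting is not given in the sources used here. Dbp shares 539 of its 2529 exon bases with Sphk2, which lies on the other strand and differed by a log2 fold change of -0.00 (edgeR adjusted p = 0.994). Nr1d1 shares 263 of 2980 exon bases with Thra, at a log2 fold change of 0.04 (edgeR adjusted p = 0.910). Per2 shares 792 of 6106 exon bases with Gm35591, which had between 18 and 78 counts in the 5 libraries. Ciart shares 111 of 2394 exon bases with BC028528, listed on the same strand, which had 70 and 66 counts in the Prdm16fl/fl mice and 91, 64 and 62 in knockout mice, beside 283 and 322 against 65, 92 and 73 counts of Ciart. The log2 fold change of BC028528 was -0.12 (edgeR adjusted p = 0.835). Cry2 shares 149 of 4138 exon bases with D930015M05Rik and Per3 shares 139 of 9162 with Uts2, which had at most 14 and 3 counts in a library. Tef, Per1, Clock and Nr1d2 shared no exon base with another gene of the files.

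To set the opposite behaviour of these genes beside their control elements, the stretches upstream of a RefSeq transcription start were searched on both strands, from 250 bases before to 50 after the start (GRCm38.p6). Of the 10 clock genes 9 had such windows, 13 in all, and Per2 did not. The letters were CACGTG for the E-box, CACGTT for a weaker variant called E′-box here, TTATGTAA or TTACGTAA for the D-box, and TAGGTCA or TGGGTCA for the ROR element, and no match shared a base with another in the windows of the clock genes. Of all 32851 windows, 7.15% held an E-box, 4.68% an E′-box, 1.06% a D-box and 6.45% a ROR element. An E-box was found for Per1, Cry1 and Tef, an E′-box for Cry1, Cry2 and Nr1d1, a D-box for Per3, and a ROR element for none of the 9. Among 9 of the other factors with windows, Ciart and Bhlhe41 held an E-box, Rorb an E′-box, and Arntl and Nfil3 a ROR element. A match is a description of letters and not a binding site measured here. The 250 bases upstream are shown 5′ to 3′ on the strand of the gene, with matches in capitals, for Tef and Ciart, which were lower in every knockout mouse, for Per1, which split the knockout mice, for Per3, which held a pair of D-boxes, and for Nfil3, which was higher in every knockout mouse. They span chr15:81802423-81802672 for the first start of Tef, chr3:95882229-95882478 for Ciart, chr11:69098699-69098948 for the first start of Per1, chr4:151044666-151044915 for Per3 and chr13:52981040-52981289 for Nfil3.
Tef: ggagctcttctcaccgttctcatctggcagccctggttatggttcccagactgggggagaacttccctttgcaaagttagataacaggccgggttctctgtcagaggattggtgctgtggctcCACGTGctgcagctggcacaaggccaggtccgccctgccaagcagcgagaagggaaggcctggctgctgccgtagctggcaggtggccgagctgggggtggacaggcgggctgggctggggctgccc
Ciart: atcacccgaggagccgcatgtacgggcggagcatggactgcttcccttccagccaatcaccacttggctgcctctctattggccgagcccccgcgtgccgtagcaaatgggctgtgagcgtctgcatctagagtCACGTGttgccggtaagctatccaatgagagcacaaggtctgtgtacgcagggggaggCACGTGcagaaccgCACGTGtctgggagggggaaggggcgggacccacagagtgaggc
Per1: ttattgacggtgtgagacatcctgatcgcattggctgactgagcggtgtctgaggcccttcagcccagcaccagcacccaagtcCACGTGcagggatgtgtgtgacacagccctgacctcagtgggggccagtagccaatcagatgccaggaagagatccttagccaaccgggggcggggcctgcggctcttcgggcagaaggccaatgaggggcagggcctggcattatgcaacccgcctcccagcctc
Per3: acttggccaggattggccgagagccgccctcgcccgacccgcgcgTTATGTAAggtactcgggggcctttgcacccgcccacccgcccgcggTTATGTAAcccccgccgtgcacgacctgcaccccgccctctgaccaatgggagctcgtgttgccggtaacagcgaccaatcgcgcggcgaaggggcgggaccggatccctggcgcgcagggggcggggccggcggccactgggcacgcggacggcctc
Nfil3: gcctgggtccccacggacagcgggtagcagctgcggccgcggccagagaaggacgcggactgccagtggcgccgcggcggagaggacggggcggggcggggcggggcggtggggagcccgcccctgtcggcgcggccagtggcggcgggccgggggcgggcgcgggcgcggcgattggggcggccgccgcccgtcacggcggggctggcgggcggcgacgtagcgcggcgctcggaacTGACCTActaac
The E-box of Tef began at -127 from the start, and a second start of Tef had one at -138. Ciart held E-boxes at -116, -58 and -44, and had the lowest log2 fold change of all the clock genes listed. An E-box did not go with a lower level throughout. Bhlhe41, with an E-box at -153, had a log2 fold change of 0.49, and Cry1, with one at -60, of 0.04. Dbp, without a match, was at -0.86. Per1 and its E-box at -166 went with no common direction in the knockout mice. The D-boxes of Per3 began at -205 and -158, and the ROR element of Nfil3, read on the opposite strand, at -12. Elements outside these windows were not searched, and Dbp, Nr1d2 and Clock held none of the letters within them.

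Read library by library, the clock genes of opposite phase stood alike in both Prdm16fl/fl mice. For each library the mean centred log2 CPM was taken over 10 genes of the E-box and D-box arm (Nr1d1, Nr1d2, Dbp, Tef, Hlf, Per1, Per2, Per3, Ciart and Bhlhe41) and over 5 genes that peak with Arntl (Arntl, Npas2, Clock, Nfil3 and Cry1). Of the E-box genes, Cry1 was thus in the second arm, and Bhlhe40 (log2 fold change of 0.68) and Cry2 (0.02) were in neither. The value with Bhlhe40 and Cry2 in the first arm was not measured. The first arm minus the second was 0.82 and 0.72 in the Prdm16fl/fl mice and -0.36, -0.16 and -1.02 in knockout mice, on the log2 scale. Each gene was centred over the 5 libraries, so the sign of a single value is set by that centring and only differences between libraries can be read. The mean was 0.77 ± 0.07 (SD, n = 2) against -0.51 ± 0.45 (SD, n = 3), a difference of -1.28, or -1.03 without knockout mouse 3. All 3 knockout mice thus lay below both Prdm16fl/fl mice, and most of the spread among them came from knockout mouse 3. No p is given for this value because the genes were chosen for it, and 2 mice against 3 could not give a two-sided exact p below 0.2. With only the members among the 10 clock genes in each arm the difference was -0.56, with 0.39 and 0.28 in the Prdm16fl/fl mice and -0.27, -0.08 and -0.32 in knockout mice, so that knockout mouse 3 stood close to knockout mouse 1.

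Each arm was then read between libraries. Knockout mice 1 and 2 stood below the Prdm16fl/fl mice in the E-box and D-box arm, at -0.31 and -0.23 against 0.37 and 0.40, and knockout mouse 3 stood at the same height as they did, at -0.22. In the Arntl arm knockout mice 1 and 2 stood at 0.05 and -0.07 against -0.45 and -0.33, and knockout mouse 3 stood well above, at 0.79. The ratio of Arntl to Dbp in TPM, which moves between the opposite ends of the loop, was 0.0104 and 0.0101 in the Prdm16fl/fl mice, 0.0219 and 0.0211 in knockout mice 1 and 2, and 0.0746 in knockout mouse 3.

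**Figure D3:**
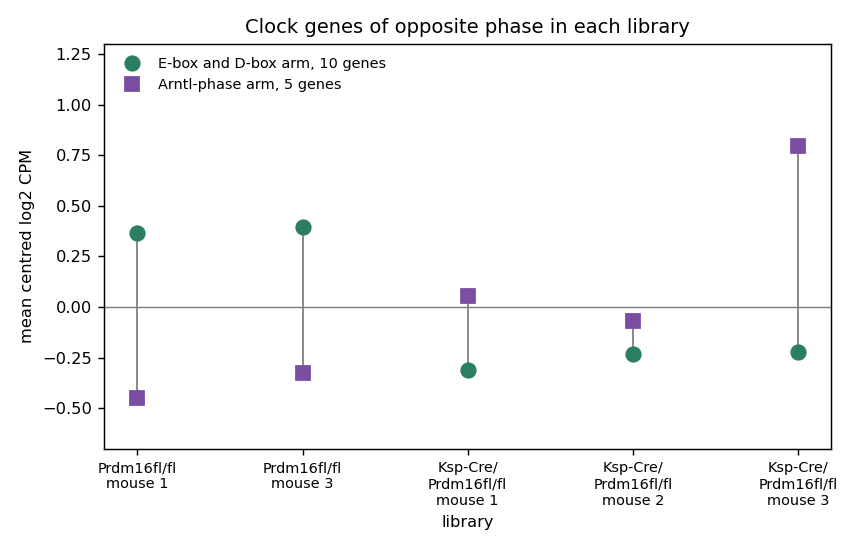
Mean centred log2 CPM in each library of 10 genes of the E-box and D-box arm (circles) and 5 genes that peak with Arntl (squares), joined by a line. Circle minus square is 0.82 and 0.72 in the Prdm16fl/fl mice and -0.36, -0.16 and -1.02 in knockout mice 1, 2 and 3, and since genes are centred over the 5 libraries only differences between libraries can be read, not the crossing of 0.

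Knockout mouse 3 did not continue the pattern of the other knockout mice in every gene. It was the highest of the 5 libraries for Clock, Per1, Cry1, Cry2 and Nr1d1 (5 of 10) and the lowest for Per2, Per3 and Dbp (3 of 10), whereas 32.0% of all genes were highest and 32.0% lowest in this library. Relative to the mean of the Prdm16fl/fl mice, Dbp was at -1.26, Per3 at -0.95 and Per2 at -0.88 in knockout mouse 3 on the log2 scale, beside Per1 at 0.52, Cry2 at 0.57 and Nr1d1 at 0.46. Tef, at -0.79, and Ciart, at -2.08, lay between the other knockout mice. Per1 and Per2, both E-box genes, thus lay on opposite sides in that mouse, and their ratio in TPM was 2.37 there against 0.568 and 0.895 in knockout mice 1 and 2 and 0.876 and 0.913 in the Prdm16fl/fl mice.

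**Figure D4:**
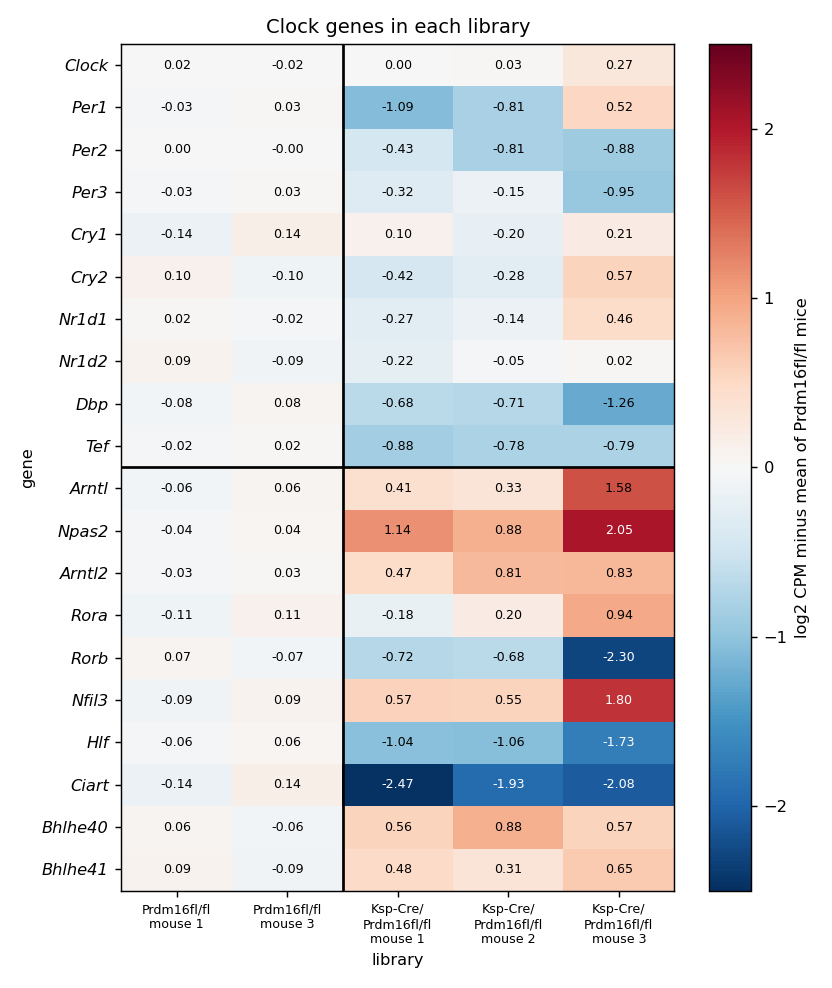
Log2 CPM of 10 clock genes (above the line) and 10 other clock factors (below it) in each library, minus the mean of the Prdm16fl/fl mice, with red for higher and blue for lower values. Tef, Dbp, Hlf and Ciart are blue in all 3 knockout mice, Npas2, Nfil3 and Arntl are red, and Per1, Cry2 and Nr1d1 turn from blue to red in knockout mouse 3.

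Glucocorticoid-responsive genes moved with that mouse. Of 11 such genes, 10 were highest in knockout mouse 3, beside 32.0% of all genes, and their median relative to the Prdm16fl/fl mean was 0.93 there against -0.27 and -0.04 in knockout mice 1 and 2. Fkbp5, a chaperone induced by glucocorticoids, had 175 and 191 CPM in the Prdm16fl/fl mice and 102, 142 and 399 CPM in knockout mice, and Klf9 had 223 and 244 against 136, 185 and 400 CPM, both in the order shown by Per1. Between genotypes 0 of the 11 were called by edgeR, DESeq2 or limma (1 at an unadjusted p under 0.05, beside 18.8% of all genes), edgeR without knockout mouse 3 called 1 (Zbtb16, beside 4.53%), and the gene with the largest log2 fold change was Zbtb16, at 2.41 (edgeR adjusted p = 0.213), or 1.26 without knockout mouse 3 (edgeR adjusted p = 0.0250). The median over the list was 0.27, and -0.05 without that mouse. Fkbp5 and Klf9 were then at -0.59 (edgeR adjusted p = 0.030) and -0.54 (edgeR adjusted p = 0.0340). Of 6 genes of the adrenal cortex, Cyp11b2 and Hsd3b6 had 0 counts in every library and only Star was tested, with a level summed over the list of 5.60 and 5.81 CPM in the Prdm16fl/fl mice and 6.07, 5.73 and 8.66 CPM in knockout mice. Of 10 immediate-early genes 0 were called by any of the 3 tools (2 at an unadjusted p under 0.05) and 1, Egr3, by edgeR without knockout mouse 3. Of these genes 2 were highest and 4 lowest in knockout mouse 3, beside 32.0% of all genes in each direction, with log2 fold changes between 0.40 (Nr4a1) and 0.95 (Fos) a median of 0.62 (0.93 without that mouse) and Junb the most abundant of them. The part of these responses in the levels of Per1, Cry2 and Nr1d1 was not tested.

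Genes whose products act on clock proteins or together with them were read in the same way. Of 12 such genes 0 were called by edgeR, DESeq2 or limma (2 at an unadjusted p under 0.05, beside 18.8% of all genes), 6 were higher in all knockout libraries and 0 lower, beside 20.3% and 21.3% of all genes, and the median log2 fold change was 0.17 beside 0.04 over all genes. Of these genes 9 were highest in knockout mouse 3, beside 32.0% of all genes, with medians relative to the Prdm16fl/fl mean of 0.08, 0.11 and 0.32 in knockout mice 1, 2 and 3, and without that mouse the median log2 fold change was 0.13. Csnk1e, a casein kinase that phosphorylates PER proteins, had the largest value, with 33.7 and 28.9 CPM against 51.7, 38.4 and 60.4 CPM and a log2 fold change of 0.68 ± 0.21 (edgeR adjusted p = 0.171). Its paralog Csnk1d had 142 CPM in both Prdm16fl/fl mice and 182, 174 and 195 CPM in knockout mice (0.37, edgeR adjusted p = 0.175). Btrc, a subunit of the ligase that marks PER for degradation, had the smallest value (-0.16, edgeR adjusted p = 0.584), and Nono was the most abundant of these genes. For comparison, the median log2 fold change was -0.18 over the 10 clock genes and 0.58 over the 10 other clock factors, and -0.29 and 0.39 without knockout mouse 3.

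Of 15 genes known to follow the clock in kidney or other organs, 0 were called by edgeR or limma. At an unadjusted p under 0.05 in edgeR there were 6, beside 18.8% of all genes. DESeq2 called 1, Noct (beside 3.15% of all genes), as did edgeR without knockout mouse 3 (beside 4.53%). By the adjusted p of edgeR alone 1, Slc9a3, passed, beside 0.976% of all genes and 0.872% lower. Slc9a3, the sodium-proton exchanger NHE3 of the proximal tubule and a direct target of CLOCK and BMAL1, had 134 and 128 CPM in the Prdm16fl/fl mice and 66.5, 71.4 and 59.7 CPM in knockout mice, a log2 fold change of -0.99 ± 0.12 (edgeR adjusted p = 0.0412). Noct, a rhythmic phosphatase, had the smallest value, with 98.9 and 157 CPM against 64.0, 43.8 and 40.0 CPM (-1.37 ± 0.27, edgeR adjusted p = 0.0726). Cdkn1a, the cell cycle inhibitor p21, had the largest, with 17.4 and 17.7 CPM against 30.3, 32.1 and 173 CPM (2.16 ± 0.86, edgeR adjusted p = 0.256), and was at 0.83 without knockout mouse 3 (edgeR adjusted p = 0.00252). Usp2, a deubiquitinase that follows the clock in many organs, had 107 and 108 CPM against 50.6, 57.2 and 68.0 CPM (-0.87 ± 0.15, edgeR adjusted p = 0.0548), and was chosen for mention after its values were seen. Without knockout mouse 3 Usp2 was at -0.99 (edgeR adjusted p = 0.000849). Over the 15 genes the median was -0.06, or -0.40 without knockout mouse 3, in which 8 of them were highest and 5 lowest, beside 32.0% of all genes each way, with 2 higher and 4 lower in all knockout libraries, beside 20.3% and 21.3% of all genes, and Alas1, of haem synthesis, was the most abundant.

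Markers of some cell types also differed between the genotypes, and their part in the levels of the clock genes was not tested. Markers of the proximal tubule, which makes up most of the cortex, together had 16493 and 17913 CPM in the Prdm16fl/fl mice and 6272, 7345 and 8458 CPM in knockout mice. Pck1, of gluconeogenesis, carried much of this sum, and without it the levels were 11069 and 10556 CPM against 4088, 4591 and 2902 CPM, lowest in knockout mouse 3. The median of the list relative to the Prdm16fl/fl mean was -1.07, -1.05 and -1.71 in knockout mice 1, 2 and 3 on the log2 scale, and 8 of the 12 genes were lowest in knockout mouse 3, beside 32.0% of all genes. All 12 had a negative log2 fold change with a median of -1.15, a larger difference than that of Tef or Dbp, and edgeR called 3 lower (beside 0.628% of all genes), Miox at -2.23 (edgeR adjusted p = 0.0412), Acsm2 at -1.56 (edgeR adjusted p = 0.0327) and Fbp1 at -1.01 (edgeR adjusted p = 0.0412). DESeq2 called 8 of the 12 (beside 3.15% of all genes), limma 1 (Acsm2, beside 0.412%) and edgeR without knockout mouse 3 called 8 (beside 4.53%), and 10 had an unadjusted p under 0.05 (beside 18.8%), and the same shares apply to the lists that follow. The most abundant was Pck1, at -0.87 (edgeR adjusted p = 0.328), or -1.37 without knockout mouse 3 (edgeR adjusted p = 0.00249). Markers of the thick limb and distal nephron, led in abundance by Umod, together had 5790 and 5916 CPM against 4649, 3936 and 2254 CPM, lowest in knockout mouse 3, with 0 of 9 called by any of the 3 tools (2 at an unadjusted p under 0.05), 1 (Pvalb) by edgeR without knockout mouse 3, and a median of -0.71. Pvalb, of the distal convoluted tubule, had 12.5 and 11.0 CPM against 1.82, 0.413 and 0 CPM. Injury markers had a median of 1.08 with 0 of 8 called by edgeR (6 at an unadjusted p under 0.05), 5 by DESeq2, 1 (Spp1) by limma and 5 by edgeR without knockout mouse 3, led in abundance by Spp1 and in size by Lcn2 (1.89, edgeR adjusted p = 0.138, and 1.23 without knockout mouse 3, edgeR adjusted p = 0.00183).

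Markers of blood, stroma and vessels were read in the same way. Leukocyte markers, with Lyz2 the most abundant, had a median relative to the Prdm16fl/fl mean of 0.31 and 0.29 in knockout mice 1 and 2 and of -0.86 in knockout mouse 3, and a median log2 fold change of -0.01 (0.29 without that mouse), with 0 of 8 called. Fibroblast markers, led by Col3a1, had a median of 0.44 and endothelial markers, led by Emcn, of -0.09 (-0.06 without knockout mouse 3), with 0 of 7 and 0 of 6 called. In these 3 lists 1, 4 and 1 genes had an unadjusted p under 0.05, DESeq2 and limma called 0, and edgeR without knockout mouse 3 called 2 fibroblast genes (Col1a1 and Col3a1) and 0 of the others. Erythroid genes, led by Hbb-bs, together had 6.67 and 10.8 CPM in the Prdm16fl/fl mice and 151, 150 and 40.5 CPM in knockout mice, with 0 of 5 called by edgeR or limma, 5 of 5 by DESeq2 (beside 3.15% of all genes) and 5 of 5 by edgeR without knockout mouse 3 (beside 4.53%), and 5 at an unadjusted p under 0.05 (beside 18.8%). All 5 were higher in every knockout library, beside 20.3% of all genes. No library of sorted cells was analysed here.

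**Figure D5:**
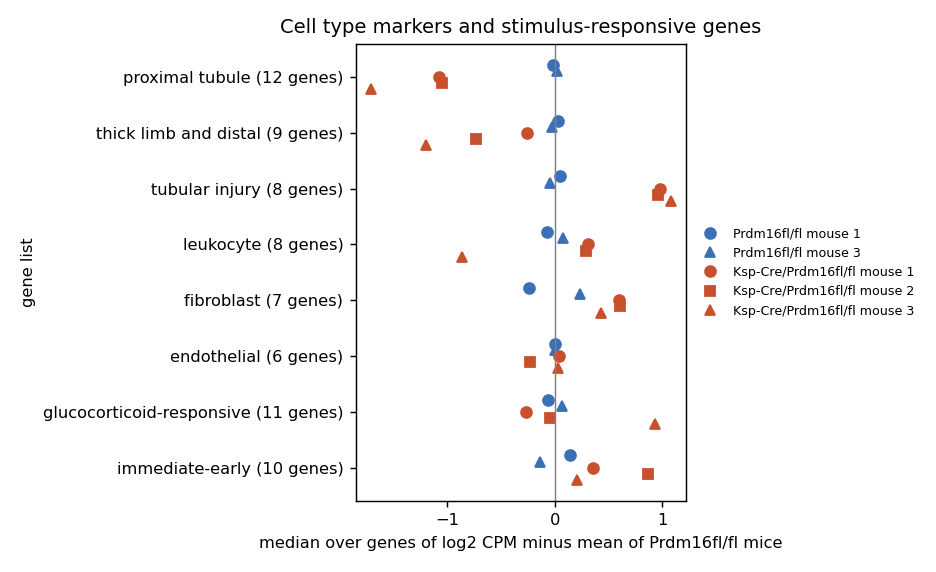
Median over each list of log2 CPM minus the mean of the Prdm16fl/fl mice, 1 point per library, for markers of kidney cell types and for glucocorticoid-responsive and immediate-early genes. Proximal tubule markers lie below -1 in all 3 knockout mice, and glucocorticoid-responsive genes are high in knockout mouse 3 alone, at 0.93.

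Per length of merged exons, Tef was the most abundant of the 10 genes in both genotypes, with 122 ± 5.92 TPM (SD, n = 2) in the Prdm16fl/fl mice and 81.7 ± 4.94 TPM (SD, n = 3) in knockout mice. In Prdm16fl/fl mice it was followed by Dbp (72.9 TPM), Nr1d2 (49.9 TPM), Per2 (33.1 TPM), Nr1d1 (32.9 TPM), Per1 (29.6 TPM), Per3 (20.4 TPM), Cry2 (14.5 TPM), Clock (13.2 TPM) and Cry1 (7.10 TPM). Of these neighbours the ranges of Per2 and Nr1d1 and of Cry2 and Clock overlapped, and the rest did not. In knockout mice Nr1d2 (55.3 TPM) came before Dbp (47.9 TPM) and Nr1d1 (39.7 TPM) before Per1 (28.1 TPM) and Per2 (24.3 TPM). There every neighbouring pair from Nr1d2 down to Clock overlapped in range, and only Tef at the top and Cry1, at 8.64 TPM, at the bottom stood clear of the gene next to them. Cry1 was thus the least abundant of the 10 in both groups, and Arntl was lower still, at 0.751 and 0.741 TPM in the Prdm16fl/fl mice and 1.22, 1.15 and 2.48 TPM in knockout mice. The merged exons of Arntl come to 19362 bases and those of Cry1 to 3977, and a greater length lowers TPM. In CPM Arntl lay below Cry1 in every library but knockout mouse 3, with 20.1 against 14.99 CPM there.

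The genes whose levels over the 5 libraries were most like those of Dbp were not clock genes. Among 13872 genes whose mean log2 CPM reached 1, Scrn2, Uqcrh, Afg1l, Lrpap1 and Gatd3a had the smallest root mean square difference from Dbp in centred log2 CPM, from 0.0326 to 0.0421. Nr1d1 was most like Tcf25, Pnpla7, Zkscan14, Dcun1d3 and Mcoln1, with differences from 0.0119 to 0.0356. These names carry no statement on function or control.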

How the data were processed

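Kidney RNA libraries of 2 Prdm16fl/fl and 3 Ksp-Cre/Prdm16fl/fl mice were grouped by the genotype in their labels. The authors deposited a raw count per gene for each mouse, and beside it TPM and FPKM made from that count by gene length and library total. The methods describe the tissue as kidney cortex. The submitters' processing notes list CASAVA, featureCounts 2.0.1 and DESeq2 1.16.1, and a human genome build, whereas the files carry mouse genes. The aligner, the mouse build and the strand setting are not given in the sources used here. In the files the entries of 5 genes ran over several lines, which were joined, and 9845 genes had 0 counts in all libraries.

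Counts were filtered with filterByExpr, scaled with TMM and tested between genotypes with the quasi-likelihood test of edgeR 4.0.16 (R 4.3.3), with Benjamini-Hochberg adjustment over all 16394 genes tested. Calls needed an adjusted p under 0.05 together with a log2 fold change whose size reached 1. CPM are per 1000000 scaled counts, and log2 CPM used a prior count of 2. A level rests on between 14939040 and 16425161 counts per library, and genes under 20 counts, such as Rorb, are imprecise by counting error alone. Alternatives were DESeq2 1.42.0, limma 3.58.1 on log2(FPKM + 1) where FPKM reached 1 in 2 libraries, other filters and scalings, the mouse number as a block, and leaving out each mouse. The count at an adjusted p alone under each setting was added after the values were seen. The edgeR and DESeq2 tests, but not limma, were also run on simulated counts. These had the same dispersion for every gene and no outlying library. They therefore do not show how the tests behave with a library like knockout mouse 3.

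The 10 clock genes, the 16 lists and the comparisons were chosen with earlier results of these data known. Named genes are the 10 clock genes, Prdm16, the 10 other clock factors, and in each further list the called genes, those with the largest and smallest log2 fold change and the most abundant. Some genes that this rule takes in are not reported here. Slc9a3, Usp2, Csnk1d, Fkbp5 and Klf9 were named after their values were seen, likewise the defining markers given by level. Likeness was the root mean square difference of centred log2 CPM. Promoter windows came from RefSeq (GRCm38.p6), and positions of genes from the files. Python 3.11.15, pandas 2.3.3 and matplotlib 3.10.9 served for tables and plots.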

Additional observations from a re-analysis of the deposited data

How the results depend on the processing

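Beside the 116 genes called (13 higher and 103 lower), DESeq2 called 500, a filter of 1 count in total 287, library size scaling 46 and limma 55, and leaving out 1 mouse gave from 0 to 733, the last without knockout mouse 3 and 0 without any other mouse (edgeR, with 1330 to 2514 genes at an unadjusted p under 0.05). Library size scaling took the all-gene median from 0.04 to 0.15. Of the 10 clock genes, 0 were called in each of these fits, and 1 when the fold limit was dropped. By adjusted p alone their count was 3 with DESeq2 (Per2, Dbp and Tef, beside 7.39% of genes with an adjusted p), 0 with library size scaling, 0 with limma, and 0 to 4 when 1 mouse was left out, where 0 came from leaving out any mouse but knockout mouse 3 (18.9% of all genes without it). Of the 10 other clock factors 3 were called with DESeq2 (Npas2, Hlf and Ciart, beside 3.15% of genes), 2 with the filter of 1 count (Hlf and Ciart), and 0 to 3 when a mouse was left out, the last, the same as with DESeq2, without knockout mouse 3 (4.53% of genes). The separated clock genes numbered 4 to 7 when a mouse was left out, 7 without knockout mouse 3 (63.3% of all genes) and 4 or 5 without another mouse (48.9% to 60.4%).

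The mouse number was tried as a block. The deviations of same-numbered mice from their group means correlated at r of 0.0010 and -0.022. With 2 Prdm16fl/fl mice these deviations are mirror images of each other. The values therefore cannot show whether same-numbered mice shared a litter or an operation day. The block fit called 0 genes (2061 at an unadjusted p under 0.05), 0 of the 10 clock genes, also by adjusted p alone, and 0 of the 10 other factors.

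Signs turned in 5 clock genes, and none of the turned values passed the test. Leaving out 1 mouse gave from -0.94 to 0.0050 for Per1 (the last without knockout mouse 1), from -0.093 to 0.18 for Cry1 (-0.093 without Prdm16fl/fl mouse 1 and -0.042 without knockout mouse 3), from -0.35 to 0.20 for Cry2 (-0.35 without knockout mouse 3 and -0.082 without Prdm16fl/fl mouse 3), from -0.21 to 0.19 for Nr1d1 (-0.21 without knockout mouse 3) and from -0.17 to 0.013 for Nr1d2 (0.013 without Prdm16fl/fl mouse 1). Nr1d2 was at 0.025 with library size scaling and 0.028 with limma. Clock, Per2, Per3, Dbp and Tef kept their sign in all alternatives. The difference between the arms of the clock kept its direction, from -1.46 to -1.03 when a mouse was left out and -0.56 with members alone. In single libraries it was 0.68 and 0.59 in Prdm16fl/fl mice 1 and 3 on log2(TPM + 1), and 0.39, 0.28 and -0.32 in these mice and knockout mouse 3 with members alone. When a mouse was left out it ranged from 0.57 to 1.0 and from 0.47 to 0.93 in the Prdm16fl/fl mice, and in knockout mouse 2 the sign turned, to 0.044 and 0.020 when Prdm16fl/fl mouse 1 or 3, respectively, was dropped. Knockout mice 1 and 3 stayed below 0, from -0.62 to -0.16 and from -1.11 to -0.81. Centring was redone over the libraries that remained, which by itself moves these values.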
